A study of Mus musculus with 25 samples.

Results

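The genes of de novo lipogenesis, the pathway that builds fatty acids from acetyl-CoA, were followed across both adipose depots of the study. They are 10 genes listed by symbol: Acly, Acaca, Fasn, Scd1, Scd2, Elovl6, Me1, Thrsp, Mlxipl and Srebf1. All 10 symbols matched 1 gene ID each among the 54752 genes of the count files, and all 10 passed the filter on low counts in both depots. RNA was sequenced from epididymal (eWAT) and inguinal (iWAT) white adipose tissue of male C57BL/6N mice, as 1 library per mouse and depot. In eWAT there were 4 wild type mice on a normal diet (WT ND), 5 wild type mice on a high-fat diet (WT HFD) and 5 Acod1-/- mice on the high-fat diet (Acod1-/- HFD). In iWAT the same groups held 3, 5 and 3 mice.

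Fat supplied 60% of the calories of the HFD. All mice, on ND or HFD, started their diet at 5 weeks of age. Both diets lasted 16 weeks by the labels, except for Acod1-/- HFD replicates 2 and 3 of iWAT, which are labelled 17 and 18 weeks. The Acod1-/- mice carry a whole-body deletion of the gene for the enzyme that makes itaconate, so the allele is missing from every cell type of the tissue. Mice of the genotype comparison were littermates born to heterozygous parents and were housed singly. All of them received the HFD, and Acod1-/- mice on ND were not analysed here. The labels do not say which eWAT and iWAT libraries came from the same mouse.

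In lipogenesis, ATP citrate lyase (Acly) splits cytosolic citrate into acetyl-CoA, acetyl-CoA carboxylase 1 (Acaca) makes malonyl-CoA from it, and fatty acid synthase (Fasn) joins these units into palmitate with NADPH, part of which comes from malic enzyme (Me1). Elovl6 lengthens palmitate to stearate, and the stearoyl-CoA desaturases Scd1 and Scd2 introduce a double bond. In adipose tissue the pathway is known to be driven by insulin and glucose through the transcription factors SREBP-1c (Srebf1) and ChREBP (Mlxipl), and to be held down by dietary fat. Thrsp, also called Spot 14, is a small nuclear and cytosolic protein that accompanies lipogenic enzymes.

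Each library held 31.41 to 52.34 M counts on genes. Acod1 had between 0 and 9 counts in every library of every group, too few for a check of the genotype labels. Of the 10 adipocyte markers none was at 0 in any group, and their summed level lay between 31319 and 86011 CPM per library, where CPM is the count of a gene scaled to a common library size. Column headers place the libraries in 2 ranges of library numbers. Range 2 holds every ND library and 1 library of each HFD group, so that the diet comparison within it has 1 HFD library per depot. Levels are CPM after TMM normalisation over all 25 libraries. A gene was called when its adjusted p in edgeR's quasi-likelihood test, with Benjamini-Hochberg adjustment over all genes of the fit, was under 0.1.

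Scd1 was by far the most abundant of the 10 transcripts. It alone took 0.925% to 4.92% of all counts of a library, and the 10 genes together took 1.18% to 5.40%. On the scale of FPKM, which divides by cDNA length and so allows genes to be compared, Scd1 ranked first in all 6 groups, with group means from 3975 to 7936. Thrsp, Fasn and Me1 held ranks 2 to 4 in all 6 groups, with means from 129 to 467 FPKM. The genes of the transcription factors had group means of 22.5 to 33.1 FPKM for Srebf1 and 7.06 to 15.5 FPKM for Mlxipl. Elovl6 was last in 5 of the 6 groups, at means of 3.06 to 8.33 FPKM, and stood above Mlxipl in iWAT WT ND, at 22.1 FPKM ± 15.3 (SD, n = 3).

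**Figure D1:**
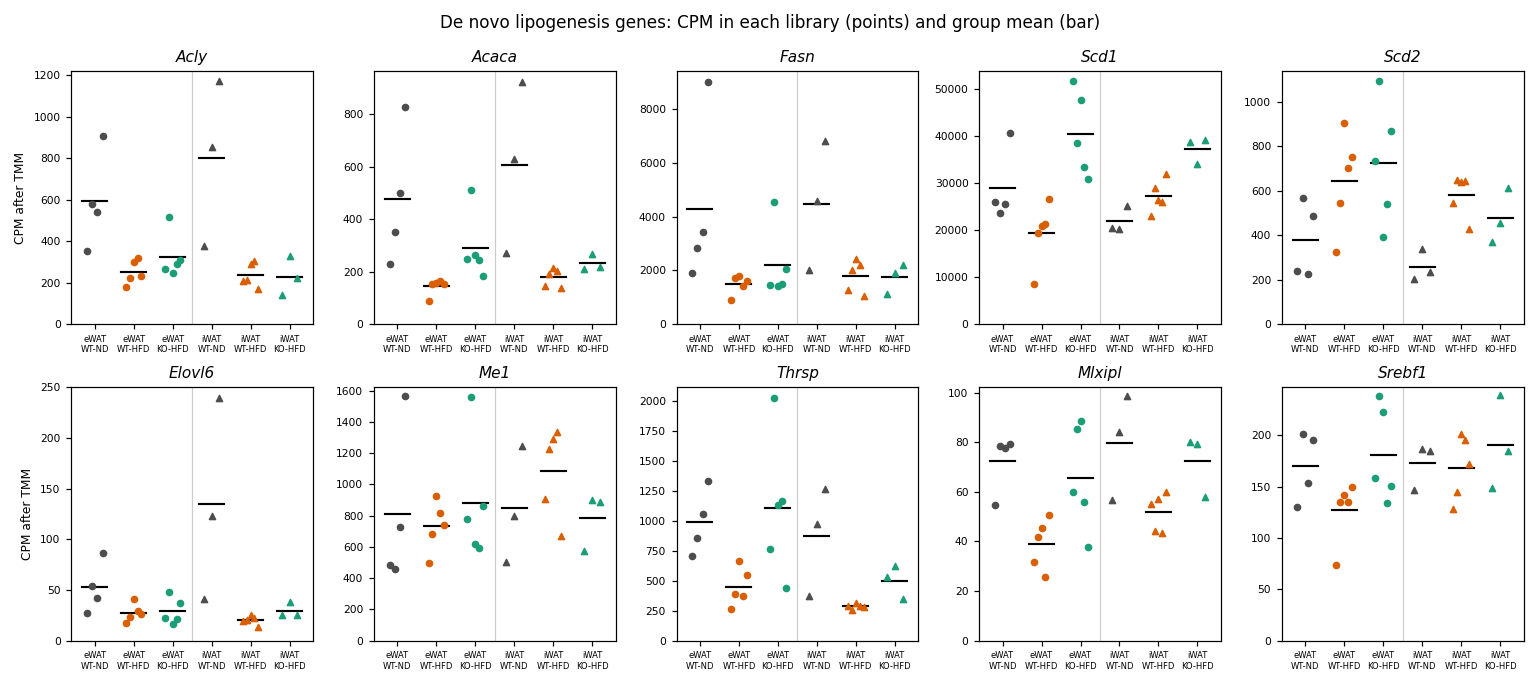
CPM after TMM normalisation (linear axis from 0) of each of the 10 genes in each library, by depot and group. Circles are eWAT and triangles iWAT libraries, grey WT ND, orange WT HFD and green Acod1-/- HFD, and bars are group means. Acly, Acaca and Thrsp of every eWAT WT HFD library lie below every eWAT WT ND library, and 1 library of eWAT WT ND and 1 of eWAT Acod1-/- HFD reach the top of their groups for 8 of 10 genes.

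Diet in eWAT was compared between 5 WT HFD and 4 WT ND mice. The enzymes of the trunk of the pathway, Acly, Acaca and Fasn, were between 2.36 and 3.31 times lower on HFD, Thrsp was 2.21 times lower, and Mlxipl and Elovl6 were 1.86 and 1.91 times lower. In all, 6 of the 10 genes were called lower and 0 higher, where 26.9% of the 14936 genes tested were called lower and 24.8% higher. The median log2 fold change of the 10 genes was -0.91, and that of all genes tested -0.04. Each library is 1 mouse, so the p-values measure the spread between mice of these groups. In bulk tissue, fewer cells of a type and less RNA per cell cannot be told apart.

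Acly, at the entry to the pathway, stood at 352, 580, 542 and 907 CPM in WT ND replicates 1 to 4 and at 182, 224, 302, 320 and 233 CPM in the 5 WT HFD mice. Acaca, whose enzyme commits acetyl-CoA to fatty acid synthesis, stood at 230, 351, 501 and 828 CPM in WT ND and at 90.4, 155, 157, 165 and 152 CPM in WT HFD. In both genes every HFD library lay below every ND library, and replicate 4 was the highest ND library. The log2 fold change was -1.24 ± 0.27 for Acly (SE, adjusted p = 0.00335) and -1.73 ± 0.35 for Acaca (adjusted p = 0.00217).

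Fasn reached 1892, 2847, 3429 and 9016 CPM in WT ND and 889, 1703, 1793, 1423 and 1614 CPM in WT HFD, again with no overlap between the groups. The spread within WT ND was wide, the highest library holding 4.76 times the lowest. Fasn differed by a log2 fold change of -1.53 ± 0.45 (adjusted p = 0.0148), which was -0.88 without WT ND replicate 4 (adjusted p = 0.086). With the library number range as a term the difference was -1.52 with an adjusted p of 0.113.

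Thrsp stood at 703, 857, 1059 and 1335 CPM in WT ND and at 265, 386, 663, 373 and 545 CPM in WT HFD, without overlap (log2 fold change -1.14 ± 0.37, adjusted p = 0.0234). Mlxipl, the glucose-responsive transcription factor, stood at 54.5, 78.5, 77.8 and 79.1 CPM in WT ND and at 31.8, 41.6, 45.2, 25.6 and 50.5 CPM in WT HFD, also without overlap (log2 fold change -0.89 ± 0.25, adjusted p = 0.011). Elovl6 was called with overlapping groups. Its levels were 27.2, 53.7, 42.1 and 86.8 CPM in WT ND and 17.6, 23.2, 41.3, 28.7 and 26.6 CPM in WT HFD (log2 fold change -0.93 ± 0.36, adjusted p = 0.0482). The Elovl6 call was lost without WT ND replicate 4 (adjusted p = 0.204) and with the library number range as a term (adjusted p = 0.307).

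The desaturases, malic enzyme and Srebf1 were not called for diet in eWAT. Scd1 ranged from 23637 to 40634 CPM in WT ND and from 8527 to 26592 CPM in WT HFD (log2 fold change -0.58 ± 0.29, adjusted p = 0.122), and Scd2 from 225 to 567.6 CPM and from 326 to 905 CPM (0.77 ± 0.36, adjusted p = 0.103). DESeq2's Wald test called both, at adjusted p of 0.0677 for Scd1 and 0.0558 for Scd2. In edgeR, leaving out 1 library gave a call for Scd1 in 1 fit (without WT HFD replicate 5, adjusted p = 0.0744), for Scd2 in 4 fits (lowest adjusted p 0.0544) and for Srebf1 in 1 fit (without WT ND replicate 1, adjusted p = 0.0839). The values of both desaturases overlapped between the diets, with a lower fitted mean on HFD for Scd1 and a higher one for Scd2. Me1 averaged 810 CPM ± 519 (SD, n = 4) in WT ND and 732 CPM ± 161 (n = 5) in WT HFD, and Srebf1 170 CPM ± 34.1 and 127 CPM ± 30.5. The ratio of Scd1 to Scd2 in FPKM ranged from 46.96 to 128 in WT ND and from 26.0 to 40.03 in WT HFD.

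Markers of other cells moved with this comparison. All 10 macrophage markers were called higher on HFD, their summed level running from 475 to 903 CPM in WT ND and from 2050 to 6134 CPM in WT HFD. Of 10 adipocyte markers 5 were called lower and 1 higher, and their sum, to which Fabp4 added most, ran from 41167 to 62530 CPM in WT ND and from 31319 to 62738 CPM in WT HFD. Among the other lists, 6 of 7 fibroblast and progenitor markers were called higher, and 4 of 6 endothelial and all 5 red blood cell markers lower. Of the markers tested, 5 of 7 of brown adipocytes, 3 of 8 of lymphocytes and 1 of 4 of skeletal muscle were called higher, and 3 of 6 of mesothelium and 5 of 6 of mammary and skin epithelium lower. Their part in the result was not tested. When each level was divided by the summed adipocyte markers of its own library, Acly, Acaca, Fasn, Thrsp and Mlxipl did not overlap between WT HFD and WT ND, with log2 ratios of the group means from -0.77 (Mlxipl) to -1.52 (Acaca), while Elovl6 did (-0.79). Fasn was apart only narrowly, its highest WT HFD value lying just below its lowest WT ND value. The share of all genes apart on this scale is not given here. That divisor is no count of adipocytes, as 5 of its markers were themselves called lower on HFD and 1 higher. Epididymal epithelium markers summed to 8178 CPM in WT ND replicate 2 and to 1.89 to 81.8 CPM in the other ND libraries, and 4 of 8 were called lower on HFD.

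**Figure D2:**
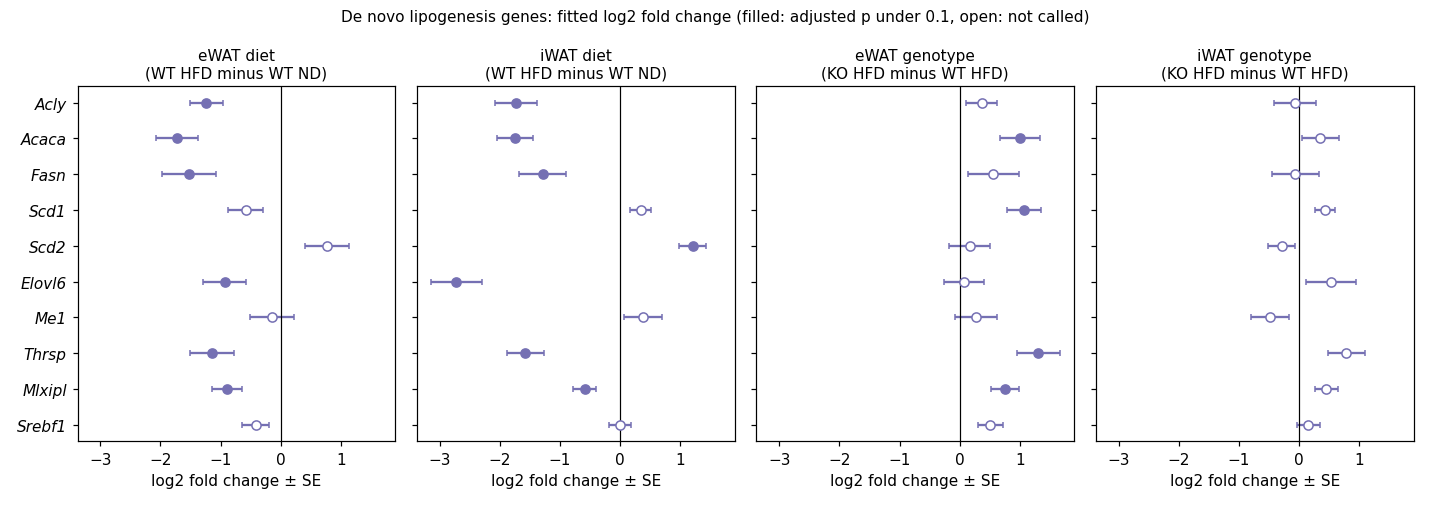
Fitted log2 fold change ± SE of the 10 genes for diet (WT HFD minus WT ND) and genotype (Acod1-/- HFD minus WT HFD) in each depot. Filled points passed an adjusted p of 0.1 and open points did not. In eWAT 6 genes were lower for diet and 4 higher for genotype, in iWAT 6 were lower and 1 higher for diet, and no gene was called for genotype in iWAT.

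Genotype in eWAT was compared between 5 Acod1-/- HFD and 5 WT HFD mice. Scd1, Acaca, Thrsp and Mlxipl were higher in Acod1-/- mice, by 2.09, 2.01, 2.47 and 1.68 times. Thus 4 of 10 genes were called higher and 0 lower, where 9.13% of 14936 genes were called higher and 10.8% lower. The fitted values of the 10 genes had a median of 0.54 on the log2 scale, against 0.04 over all genes.

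Scd1 stood at 8527, 19425, 20838, 21249 and 26592 CPM in WT HFD and at 51802, 38488, 47717, 33584 and 30977 CPM in Acod1-/- HFD. Every Acod1-/- library lay above every WT HFD library. The log2 fold change was 1.07 ± 0.28 (adjusted p = 0.0284), it stayed called in each of the fits that left out 1 eWAT library, and it lost the call with no filter on low counts (adjusted p = 0.113). With the HFD libraries of range 1 alone the value was 1.28 (adjusted p = 0.0256).

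Acaca stood at 248.6, 510, 265, 244 and 183 CPM in Acod1-/- HFD, all 5 above the highest WT HFD library (165 CPM) (log2 fold change 1.01 ± 0.33, adjusted p = 0.0615). Thrsp stood at 768, 2028, 1132, 1164 and 439 CPM, 4 of 5 above all WT HFD libraries (1.31 ± 0.35, adjusted p = 0.0318). Mlxipl stood at 59.7, 85.4, 88.5, 56.0 and 37.7 CPM, again with 4 of 5 above all WT HFD libraries (0.75 ± 0.23, adjusted p = 0.053). Replicate 5 was the Acod1-/- library inside the WT HFD range in both Thrsp and Mlxipl.

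Acly and Fasn, both lower on HFD, were not called for genotype. Acly averaged 326 CPM ± 109 in Acod1-/- HFD and 252 CPM ± 57.5 in WT HFD (SD, n = 5 each), and Fasn 2194 CPM ± 1344 and 1484 CPM ± 360. The Acod1-/- mean of Fasn rested on replicate 2, at 4555 CPM, with the other 4 libraries between 1423 and 2044 CPM. Elovl6, Scd2 and Me1 differed by 0.07, 0.17 and 0.27 on the log2 scale, with adjusted p between 0.646 and 0.91. Srebf1 averaged 181 CPM ± 46.7 and 127 CPM ± 30.5 (log2 fold change 0.51 ± 0.21, adjusted p = 0.129), and it was called by DESeq2's Wald test (0.50, adjusted p = 0.088) and by edgeR without Acod1-/- HFD replicate 5 (0.56, adjusted p = 0.0987).

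Of these 4 calls, those of Acaca and Mlxipl depended on single libraries. Acaca and Mlxipl both lost the call, leaving 2 genes, in 4 fits: without WT HFD replicate 1, without WT HFD replicate 4, without Acod1-/- HFD replicate 2 and without Acod1-/- HFD replicate 3. Acaca was also lost without WT HFD replicate 2 (adjusted p = 0.101), and the estimates of Acaca and Mlxipl over all the fits that left out 1 library ran from 0.71 to 1.13 and from 0.61 to 0.89. WT HFD replicate 1 was the lowest of its group for 9 of 10 genes, and Acod1-/- HFD replicate 2 and WT ND replicate 4 were each the highest of theirs for 8 of 10. With these 3 libraries left out together, a fit added after the values were seen, only Scd1 of the 10 genes was called for genotype (0.90, adjusted p = 0.0611), and 5 genes were called lower and 2 higher for diet. The 5 were Acly, Acaca, Fasn, Thrsp and Mlxipl, and the 2 were Scd2 and Me1. The 3 libraries were chosen by the levels of these same genes, so fewer calls for genotype were partly built into the choice. The shares of all genes in that fit are not given here.

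Markers moved with genotype as well. All 10 macrophage markers were called lower in Acod1-/- HFD, with sums of 478 to 1761 CPM against 2050 to 6134 CPM. WT HFD replicate 1, the library lowest for most of the lipogenic genes, had the highest macrophage sum and the lowest adipocyte sum of its group. Of 10 adipocyte markers 6 were called higher and 0 lower, with sums of 48881 to 86011 CPM against 31319 to 62738 CPM. Epididymal epithelium markers summed to 1087 CPM in Acod1-/- HFD replicate 5, the lowest library of its group for Thrsp and Mlxipl, and to 1.81 to 247 CPM in the other 4, and 2 of 8 were called higher. Of 7 fibroblast and progenitor markers 4 were called lower, with sums of 1722 to 2801 CPM against 2728 to 4690 CPM, and 1 of 7 brown adipocyte and 1 of 8 lymphocyte markers were lower. Acod1-/- HFD replicate 2 had 13.2% of its counts on mitochondrial genes, where the other 4 libraries of the group had 5.09% to 7.69%, and the lowest depth of the 25 libraries, at 31.41 M counts. Their part in the result was not tested. Divided by the summed adipocyte markers of each library, the values of all 10 genes overlapped between the genotypes, and the log2 ratios of the group means were 0.65 for Scd1, 0.47 for Acaca, 0.80 for Thrsp and 0.23 for Mlxipl. That divisor is no count of adipocytes, as 6 of its markers were themselves called higher in Acod1-/- HFD.

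**Figure D3:**
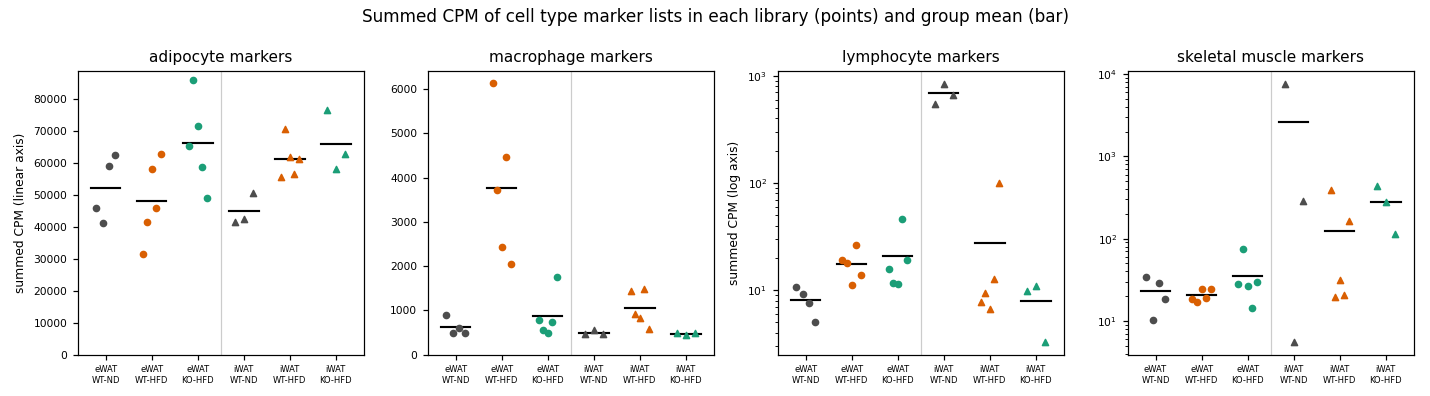
Summed CPM of the marker lists of adipocytes and macrophages (linear axis from 0) and of lymphocytes and skeletal muscle (log axis) in each library, with bars at group means and colours as in the plot of gene levels. Macrophage sums are 2050 to 6134 CPM in eWAT WT HFD and at most 1761 CPM in every other group, and lymphocyte sums are 543 to 846 CPM in iWAT WT ND.

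Acod1-/- HFD mice were also set beside WT ND mice in eWAT, a comparison that shares libraries with both of the above. Diet and genotype both differ in it. Acly was lower (-0.87 ± 0.27, adjusted p = 0.0437) and Scd2 higher (0.94 ± 0.37, adjusted p = 0.0918), which makes 2 of 10 genes called, where 26.5% of 14936 genes were. Thrsp averaged 1106 CPM in Acod1-/- HFD and 989 CPM in WT ND, and Mlxipl 65.5 and 72.5 CPM. Fasn averaged 2194 and 4296 CPM (-0.97 ± 0.45, adjusted p = 0.141). The Scd2 call was lost in 9 of the 14 fits that left out 1 library, with an adjusted p of up to 0.226. No gene remained called without WT ND replicate 4 or with the library number range as a term, and 4 were called without WT ND replicate 1 or without Acod1-/- HFD replicate 2.

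In iWAT, diet was compared between 5 WT HFD and 3 WT ND mice. The same 6 genes as in eWAT were called lower, namely Acly, Acaca, Fasn, Elovl6, Thrsp and Mlxipl, and Scd2 was called higher. Elovl6, which lengthens palmitate, was 6.60 times lower, Acaca and Acly 3.35 and 3.32 times, Thrsp 2.99 times, Fasn 2.45 times and Mlxipl 1.51 times, and Scd2 was 2.30 times higher. Over all 14801 genes tested 24.2% were called lower and 25.9% higher. The median log2 fold change of the 10 genes was -0.94, and that of all genes was 0.00.

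Elovl6 stood at 41.3, 123 and 239 CPM in WT ND replicates 1 to 3 and at 19.2, 20.3, 25.2, 22.2 and 13.6 CPM in WT HFD. Its HFD libraries lay close together and below all ND libraries, while the ND libraries spanned 5.78 times (log2 fold change -2.72 ± 0.42, adjusted p = 0.000632). Acly stood at 378, 854 and 1171 CPM in WT ND and at 210, 215, 289, 304 and 170 CPM in WT HFD (-1.73 ± 0.35, adjusted p = 0.00278). Acaca stood at 273, 628 and 924 CPM and at 146, 191, 214, 203 and 138 CPM (-1.75 ± 0.30, adjusted p = 0.00128). In these genes the groups did not overlap, and ND replicate 1 was the ND library nearest to the HFD mice.

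Thrsp was the least variable of the 10 genes in iWAT WT HFD, at 289, 252, 316, 290 and 282 CPM, against 375, 971 and 1262 CPM in WT ND (-1.58 ± 0.31, adjusted p = 0.00217). Fasn stood at 2000, 4575 and 6811 CPM in WT ND and at 1275, 2027, 2414, 2211 and 1049 CPM in WT HFD (-1.29 ± 0.39, adjusted p = 0.0214). Mlxipl stood at 56.7, 84.1 and 98.6 CPM and at 54.9, 44.1, 57.2, 43.3 and 60.1 CPM (-0.59 ± 0.19, adjusted p = 0.0272). Fasn and Mlxipl overlapped between the diets through ND replicate 1, and both lost the call without ND replicate 3 (adjusted p = 0.111 and 0.116) and with the library number range as a term (adjusted p = 0.114 and 0.119).

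Scd2 stood at 203, 337 and 234 CPM in WT ND and at 544, 650, 641, 644 and 428 CPM in WT HFD, every HFD library above every ND library (1.20 ± 0.23, adjusted p = 0.00192). Scd1, its close relative, ran from 20376 to 25114 CPM and from 22950 to 32002 CPM and was not called (0.34 ± 0.18, adjusted p = 0.137). Me1 ran from 504 to 1247 CPM and from 671 to 1336 CPM (0.38 ± 0.31, adjusted p = 0.349). Srebf1 averaged 173 CPM ± 22.3 (SD, n = 3) in WT ND and 168 CPM ± 31.8 (n = 5) in WT HFD, with a fitted log2 fold change of 0.00 ± 0.19 (adjusted p = 0.989). Without ND replicate 3, Scd1 and Me1 passed the threshold on the higher side, at adjusted p = 0.0946 and 0.0881. Scd1 was also called by DESeq2's Wald test (0.32, adjusted p = 0.0396) and with the library number range as a term (0.54, adjusted p = 0.0939).

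Marker lists moved with diet in iWAT too, but not all in the way they did in eWAT. Of 10 adipocyte markers 6 were called higher on HFD and 2 lower, their sums running from 41442 to 50634 CPM in WT ND and from 55650 to 70510 CPM in WT HFD. All 8 lymphocyte markers were called lower, with sums of 543 to 846 CPM in WT ND and 6.61 to 101 CPM in WT HFD. Skeletal muscle markers summed to 7634, 5.60 and 290 CPM in the 3 ND libraries, and brown adipocyte markers to 210, 510 and 1440 CPM in ND against 88.3 to 164 CPM in HFD. Replicate 1, with the highest muscle sum, was the lowest ND library for 9 of the 10 genes, and replicate 3, with the highest brown adipocyte sum, was the highest for 8. Macrophage markers were called higher for 8 of 10, at 454 to 546 CPM in WT ND and 581 to 1471 CPM in WT HFD. All 6 endothelial and 6 of 7 fibroblast and progenitor markers were called higher as well, and 5 of 6 skeletal muscle, 5 of 8 brown adipocyte and 2 of 7 mammary and skin epithelium markers lower. Their part in the result was not tested. Per summed adipocyte marker the 6 lower genes did not overlap between the diets, with log2 ratios of the group means from -1.04 (Mlxipl) to -3.12 (Elovl6), and Srebf1 did not overlap either (-0.47). The divisor itself did not overlap between the diets and was higher on HFD, which lowers every ratio on HFD. The share of all genes apart on this scale is not given here. Scd2, called higher, did overlap on that scale (a log2 ratio of 0.72, its lowest HFD value lying below its highest ND value), and so did Scd1 (-0.13) and Me1 (-0.05).

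For genotype in iWAT, 3 Acod1-/- HFD mice were compared with 5 WT HFD mice. None of the 10 genes was called by edgeR, which called 0% of 14801 genes, and 3 of the 10 had an unadjusted p under 0.05 in that test. DESeq2's Wald test called 2, Scd1 (0.46, adjusted p = 0.0253) and Thrsp (0.81, adjusted p = 0.0891). The shares of all genes under DESeq2, at an unadjusted p under 0.05 or in the range 1 fit below are not given here. The study, which used DESeq2, reported genes for this comparison at an adjusted p under 0.1. The fit of the HFD libraries of range 1 alone, with 2 Acod1-/- mice, called Thrsp and Mlxipl higher and Scd2 lower. Leaving out Acod1-/- HFD replicate 3, labelled 18 weeks, also gave calls for Thrsp (1.01, adjusted p = 0.0785) and Mlxipl (0.62, adjusted p = 0.079).

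Scd1 stood at 38852, 34205 and 39152 CPM in iWAT Acod1-/- HFD, all above the 5 WT HFD libraries, whose highest was 32002 CPM. Thrsp stood at 533, 621 and 349 CPM, also above all 5 WT HFD libraries, whose highest was 316 CPM. The fitted log2 differences were 0.43 for Scd1 (0.09 to 0.77, value ± 2 SE), 0.78 for Thrsp (0.17 to 1.39) and 0.45 for Mlxipl (0.07 to 0.83), with adjusted p of 0.238, 0.236 and 0.263. For Acly the interval was -0.78 to 0.65, for Fasn -0.86 to 0.73 and for Acaca -0.26 to 0.97. The intervals of Acly, Fasn and Acaca held 0, and that of Acaca ended just under the 1.01 fitted in eWAT. None of the 10 macrophage markers was called here by edgeR, their sums being 435 to 495 CPM in Acod1-/- HFD and 581 to 1471 CPM in WT HFD. Acod1-/- HFD replicate 2, the highest of its group for 6 of the 10 genes, had a summed level of 628 CPM for mammary and skin epithelium markers, where the other 2 had 2.79 and 3.94 CPM. The part of either in the result was not tested.

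Against WT ND mice, iWAT Acod1-/- HFD mice had lower Elovl6 (-2.19 ± 0.49, adjusted p = 0.00794), Acly (-1.80 ± 0.41, adjusted p = 0.00868), Acaca (-1.39 ± 0.35, adjusted p = 0.0145) and Fasn (-1.35 ± 0.45, adjusted p = 0.0471). Both desaturases were higher, Scd1 by 0.77 ± 0.20 (adjusted p = 0.0139) and Scd2 by 0.91 ± 0.25 (adjusted p = 0.0189). That makes 6 of 10 genes called, where 34.6% of 14801 genes were. Scd1, Scd2, Acly, Acaca and Elovl6 did not overlap between these groups. The Fasn call was lost without WT ND replicate 2, WT ND replicate 3 or Acod1-/- HFD replicate 1, and in the fit of the 2 groups alone. Diet and genotype both differ here, and Acod1-/- HFD replicates 2 and 3 are labelled 17 and 18 weeks. All 8 lymphocyte and 4 of 8 brown adipocyte markers were called lower. Of 10 adipocyte markers 5 were called higher, as were 3 of 6 endothelial markers. Of 7 fibroblast and progenitor markers 3 were higher and 1 lower, and of 10 macrophage markers 2 and 1. Their part in the result was not tested.

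The depots were compared in a fit of all 25 libraries. On ND, Elovl6 was 2.56 times higher in iWAT than in eWAT (log2 difference 1.36 ± 0.44, adjusted p = 0.0287), as 1 of 10 genes called where 31.7% of 15034 genes were, and the call was lost without iWAT WT ND replicate 3 (0.65, adjusted p = 0.342). On ND all 8 brown adipocyte, 8 lymphocyte and 6 skeletal muscle markers were called higher in iWAT, with median log2 differences of 4.93, 6.36 and 9.41, and all 6 mesothelial markers lower (-7.96), and their part was not tested. On HFD in wild type mice edgeR called 0 of 10 genes, where it called 18.6% of all genes. In Acod1-/- mice on HFD it again called 0 of 10, where it called 3.81% of all genes. In each genotype DESeq2 called 1 gene, and 1 gene had an unadjusted p under 0.05 in edgeR's test. The shares of all genes by those measures are not given here.

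The difference between the depots in the effect of diet was called for 2 of 10 genes, Elovl6 and Scd1, a share below the 29.0% of 15034 genes with a called interaction. Elovl6 fell further in iWAT, by an interaction of -1.81 ± 0.58 on the log2 scale (adjusted p = 0.0291), and Scd1 had an interaction of 0.90 ± 0.36 (adjusted p = 0.0782), its fitted diet effect being -0.58 in eWAT and 0.34 in iWAT. The Elovl6 interaction was lost without iWAT WT ND replicate 3 (-1.10, adjusted p = 0.18), and that of Scd1 without any of 5 other single libraries, 3 of them WT ND and 2 WT HFD. Marker lists had called interactions too, with 8 of 8 lymphocyte, 7 of 8 brown adipocyte, 3 of 6 skeletal muscle and 3 of 10 macrophage markers on the lower side in iWAT and 6 of 6 endothelial and 5 of 10 adipocyte markers on the higher side. Their part in the result was not tested. The effect of genotype did not pass a test of difference between the depots for any of the 10 genes, with 0 called by edgeR and by DESeq2 and 0 at an unadjusted p under 0.05, where edgeR called 0.00665% of all genes. For Acaca, Scd1, Thrsp and Mlxipl the fitted differences between depots in the effect of genotype were -0.64, -0.61, -0.50 and -0.27, with SE of 0.49, 0.35, 0.51 and 0.33.

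Across the 6 groups the order of the mean levels was not the same for every gene. Acly, Acaca, Fasn and Elovl6 had their highest mean in iWAT WT ND and the next in eWAT WT ND, whereas Scd1 was highest in eWAT Acod1-/- HFD and then iWAT Acod1-/- HFD, and Scd2 in eWAT Acod1-/- HFD and then eWAT WT HFD. In every gene each group overlapped the next one in that order. The genes whose group means lay nearest to the mean pattern of the 10, by the root mean square difference of centred log2 CPM over the 6 group means, were Uck1 (0.04), Aasdh (0.06), Cfap97 (0.06), Ddx27 (0.07) and Izumo4 (0.07), out of 9268 other genes that averaged 10 CPM or more in both depots. The 10 genes themselves lay between 0.18 (Mlxipl) and 0.76 (Scd2) from their own mean pattern, and 3 of them were nearer to it than the median gene at 0.38.

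Genes that feed or control the pathway were read from lists of related genes. Their counts stand beside the shares of all genes given above, 24.8% higher and 26.9% lower for diet in eWAT, 25.9% and 24.2% for diet in iWAT, and 9.13% and 10.8% for genotype in eWAT. The counts of every list, those of acetyl-CoA supply and sterol synthesis included, are of few genes, and several lay near those shares. No list was tested as a set, so a count above or below those shares is no result about a list. For the supply of acetyl-CoA and malonyl-CoA, 6 of 16 genes were called lower and 0 higher on HFD in eWAT, 6 lower and 2 higher on HFD in iWAT, and 5 higher and 0 lower in eWAT of Acod1-/- mice. Acacb, the mitochondrial acetyl-CoA carboxylase, was lower on HFD in both depots (-1.67 ± 0.34 in eWAT and -1.36 ± 0.33 in iWAT, adjusted p = 0.00242 and 0.00752) and higher in eWAT of Acod1-/- mice (1.001 ± 0.326, adjusted p = 0.0605). Pdk2, a kinase that inhibits pyruvate dehydrogenase, followed the same directions, at -1.38 ± 0.24, -0.84 ± 0.16 and 0.87 ± 0.23. Acss1, a mitochondrial acetyl-CoA synthetase, was lower on HFD in iWAT (-1.85 ± 0.24), and Aacs, which activates acetoacetate in the cytosol, was lower on HFD in eWAT (-1.12 ± 0.24) and higher in Acod1-/- mice there (0.84 ± 0.23).

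Of the 9 NADPH-producing genes, 3 were called higher and 2 lower on HFD in each depot. Idh1, the cytosolic NADP-dependent isocitrate dehydrogenase, was higher in both (0.70 ± 0.15 in eWAT and 0.85 ± 0.13 in iWAT), and Tkt, the transketolase of the pentose phosphate pathway, was lower in both (-1.21 ± 0.30 and -1.39 ± 0.30). G6pdx, which opens the pentose phosphate pathway, was higher in iWAT (1.32 ± 0.19), and Pgls, its next step, was higher in eWAT (0.65 ± 0.18). None of the 9 was called for genotype in either depot.

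Among other elongases and desaturases, 5 of 15 tested genes were called higher and 4 lower on HFD in eWAT, and 6 higher and 2 lower in iWAT. Fads1 and Fads2, the delta-5 and delta-6 desaturases of polyunsaturated fatty acids, were lower on HFD in eWAT (-1.44 ± 0.22 and -2.76 ± 0.61), and Hacd2, an elongation dehydratase, was lower there too (-0.76 ± 0.16). In iWAT Fads3, Hacd1 and Elovl2 were higher on HFD, the first pair by 2.33 ± 0.29 and 1.16 ± 0.15, while Elovl2 averaged 0.05 CPM in WT ND and 5.41 CPM in WT HFD. For genotype in eWAT, Elovl1 and Fads6 were the 2 called, both lower (-0.44 ± 0.15 and -1.08 ± 0.40). In iWAT none was called for genotype, the smallest p being those of Fads1, at 139 CPM in Acod1-/- HFD and 37.4 CPM in WT HFD (adjusted p = 0.137), and Fads2, at 59.8 and 5.61 CPM (adjusted p = 0.162).

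Of 19 regulators of lipogenic transcription, 7 were called lower and 4 higher on HFD in eWAT, and 5 lower and 3 higher in iWAT. Insig1, which holds SREBP proteins in the endoplasmic reticulum, was higher in both depots (2.13 ± 0.30 and 1.498 ± 0.263), while Insig2 was lower in eWAT (-0.99 ± 0.17). Lpin1, a phosphatidate phosphatase and transcriptional coregulator, was lower on HFD in eWAT (-1.16 ± 0.24) and higher in Acod1-/- mice there (0.73 ± 0.23, adjusted p = 0.0558). Srebf2, the paralogue that drives sterol synthesis, was lower on HFD in iWAT (-0.87 ± 0.18) and lower in eWAT of Acod1-/- mice (-0.42 ± 0.14), as was Usf1 there (-0.43 ± 0.12). Cideb, a lipid droplet protein, was higher on HFD in iWAT, with group means of 0.17 CPM in WT ND and 2.81 CPM in WT HFD (4.04 ± 0.80).

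Of 10 targets of glucose sensing, 4 were called lower and 1 higher on HFD in eWAT, and 2 lower and 2 higher in iWAT. Pnpla3, a triglyceride lipase family member under SREBP-1c and ChREBP, was lower on HFD in eWAT (-1.60 ± 0.20) and higher in Acod1-/- mice (0.78 ± 0.19, adjusted p = 0.0208), with no overlap between groups in either comparison. Txnip was lower on HFD in eWAT (-1.36 ± 0.30) and Gpd1 higher (1.06 ± 0.28). Slc2a4, the insulin-responsive glucose transporter, was lower on HFD in iWAT (-0.41 ± 0.15) and higher in eWAT of Acod1-/- mice (1.16 ± 0.32), and Arrdc4 was lower there (-0.43 ± 0.16). Tkfc was higher on HFD in iWAT (0.58 ± 0.20), and Pklr, listed at 0 counts in all iWAT WT ND libraries, averaged 2.77 CPM in WT HFD.

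For AMPK and its control of acetyl-CoA carboxylase, 3 of 10 genes were called higher and 3 lower on HFD in eWAT, 2 higher and 1 lower in iWAT, and 2 higher and 2 lower for genotype in eWAT. Prkaa1, a catalytic subunit, was lower on HFD in eWAT (-0.68 ± 0.12) and higher in Acod1-/- mice (0.33 ± 0.11), and Brca1, which binds phosphorylated acetyl-CoA carboxylase, had the opposite signs (2.66 ± 0.61 and -1.49 ± 0.53). In iWAT Ppp2r1a and Trib3 were higher on HFD (0.63 ± 0.10 and 0.80 ± 0.22) and Prkab1 lower (-0.35 ± 0.12).

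Sterol synthesis shares the SREBP system. On HFD 9 of 17 tested genes were called higher and 1 lower in eWAT, where the shares of all genes were 24.8% and 26.9%, and 5 higher and 0 lower in iWAT, where they were 25.9% and 24.2%, with list medians of 0.60 and 0.69 on the log2 scale. Sc5d rose in both depots (1.20 ± 0.20 and 1.76 ± 0.18), Msmo1 and Dhcr7 rose in eWAT (0.95 ± 0.13 and 1.87 ± 0.29), and Nsdhl and Lss rose in iWAT (1.23 ± 0.29 and 1.28 ± 0.44). For genotype in eWAT, Fdft1 was higher (0.81 ± 0.24) and 3 genes were lower, Msmo1 and Dhcr7 among them (-0.54 ± 0.12 and -0.80 ± 0.26). For genotype in iWAT none of the related lists had a called gene in edgeR's test.

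**Figure D4:**
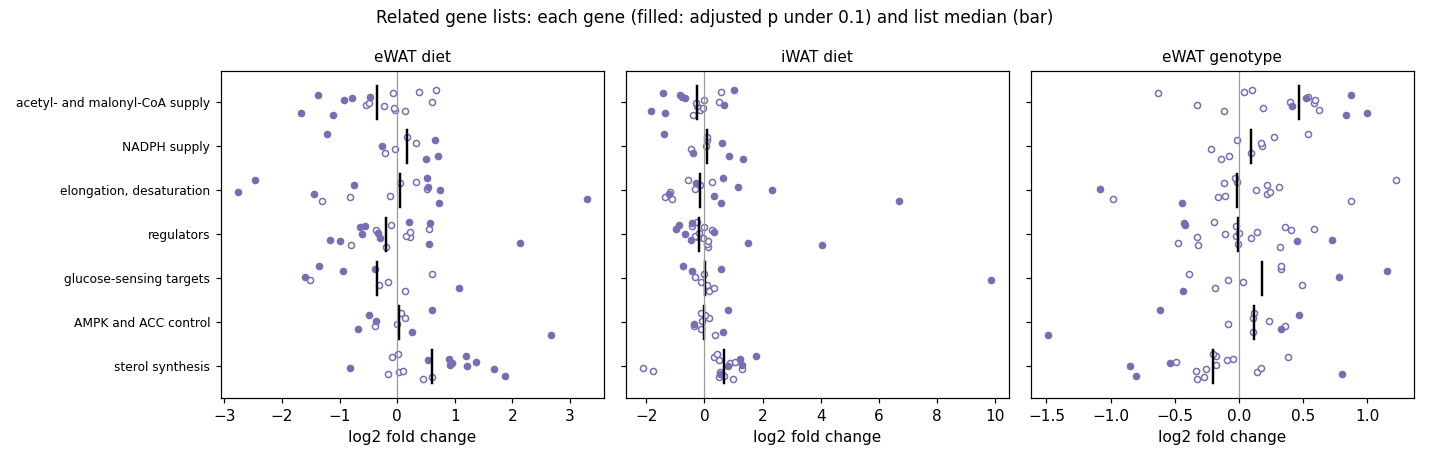
Fitted log2 fold change of each gene of the 7 related lists for diet in eWAT and iWAT (WT HFD minus WT ND) and genotype in eWAT (Acod1-/- HFD minus WT HFD). Filled points passed an adjusted p of 0.1, and black bars are list medians. The medians of the supply of acetyl-CoA and malonyl-CoA are -0.35 and -0.27 for diet and 0.47 for genotype, and those of sterol synthesis 0.60, 0.69 and -0.20. The rightmost iWAT point is Pklr, listed at 0 counts in WT ND, so its fitted value is no measure of size, and axes differ between panels.

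The sequence before the start sites was read for the genes of the trunk and for the transcription factors, Srebf1 and Mlxipl. The windows printed are those of Fasn, Acly and Mlxipl, called lower on HFD in both depots, and of Srebf1, not called by edgeR for diet or genotype in either depot with all libraries kept. RefSeq (GRCm38.p6) start-site windows matched 8 of the 10 genes, with 12 windows in all, and Scd1 and Scd2 were without one. The 250 bases before each start were searched on both strands for the E-box CACGTG, the sterol regulatory element core TCACNCCAC, CCAAT, the GC box GGGCGG, and GGGTTACT, the first part of the LXR elements known in the Srebf1 promoter. These occur in 6.02%, 1.05%, 33.8%, 32.7% and 0.484% of 32851 windows of that length. The last was chosen after the sequences were seen. Shown 5′ to 3′ on the gene's strand, with matches in capitals, are Fasn (chr11:120824548-120824797, minus strand), Acly (chr11:100528001-100528250, minus strand), an inner start of Srebf1 (chr11:60210472-60210721, minus strand) and the upstream and inner starts of Mlxipl (chr5:135089640-135089889 and chr5:135106641-135106890, plus strand).
Fasn: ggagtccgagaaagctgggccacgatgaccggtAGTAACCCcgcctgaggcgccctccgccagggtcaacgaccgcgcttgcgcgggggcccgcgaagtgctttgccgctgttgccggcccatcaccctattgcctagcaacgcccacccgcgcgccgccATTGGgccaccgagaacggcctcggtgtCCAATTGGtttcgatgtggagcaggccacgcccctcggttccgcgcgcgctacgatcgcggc
Acly: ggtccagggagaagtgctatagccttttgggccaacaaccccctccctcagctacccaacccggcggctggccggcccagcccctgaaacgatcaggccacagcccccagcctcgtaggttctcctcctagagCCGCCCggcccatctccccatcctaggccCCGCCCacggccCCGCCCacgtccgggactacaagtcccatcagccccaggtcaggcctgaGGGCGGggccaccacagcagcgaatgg
Srebf1 inner: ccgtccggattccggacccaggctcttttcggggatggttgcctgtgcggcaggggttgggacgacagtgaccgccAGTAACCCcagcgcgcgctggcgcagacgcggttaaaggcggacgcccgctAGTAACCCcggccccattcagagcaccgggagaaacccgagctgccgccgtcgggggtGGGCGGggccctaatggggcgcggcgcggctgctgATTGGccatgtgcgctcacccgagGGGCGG
Mlxipl upstream: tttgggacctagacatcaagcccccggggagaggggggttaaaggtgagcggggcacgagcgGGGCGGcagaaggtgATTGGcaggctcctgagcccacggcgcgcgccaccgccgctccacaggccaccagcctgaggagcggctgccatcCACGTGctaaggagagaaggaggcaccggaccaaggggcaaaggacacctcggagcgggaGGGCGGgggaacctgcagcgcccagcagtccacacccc
Mlxipl inner: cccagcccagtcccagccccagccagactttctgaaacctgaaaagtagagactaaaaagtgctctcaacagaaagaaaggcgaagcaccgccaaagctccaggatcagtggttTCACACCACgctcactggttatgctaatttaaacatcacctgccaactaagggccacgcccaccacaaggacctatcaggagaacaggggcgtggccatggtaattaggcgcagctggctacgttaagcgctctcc

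Fasn held 3 CCAAT matches, 2 of them overlapping on opposite strands, and 1 match to GGGTTACT at position -217, counted on the gene's strand to the first base of the match from -1 just before the start. Srebf1 held 2 matches to GGGTTACT at the inner start printed, at -174 and -123, along with 1 CCAAT and 2 GC box matches. Its other windows held no GGGTTACT. A further inner start (chr11:60220628-60220877) held 2 GC boxes, and the start at the gene's outer end (chr11:60222582-60222831) held 1 CCAAT. Acly held 4 GC boxes and no other motif searched. The upstream start of Mlxipl held the E-box, at -98, and its inner start the sterol regulatory element core, at -136. The Acaca and Elovl6 windows held none of the 5 motifs, the Thrsp window 2 CCAAT matches, and the pair of Me1 windows 1 CCAAT and 3 GC box matches. The Acaca window (chr11:84195188-84195437, plus strand) is that of an inner start, as the gene begins at 84129672. No window before the upstream start of Acaca was searched. A match is a description of these letters only. The counts are per gene and do not separate transcripts from the different starts of Srebf1 or Mlxipl.

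By position in GRCm38, Acaca (84129672 to 84401651), Acly (100476353 to 100528000), Fasn (120805846 to 120824547) and Srebf1 (60199089 to 60222581) lie on chromosome 11, and Scd1 (44394455 to 44407879) and Scd2 (44293674 to 44306864) on chromosome 19. Elovl6 is on chromosome 3 (129532355 to 129638495), Mlxipl on chromosome 5 (135089890 to 135138382), Thrsp on chromosome 7 (97412938 to 97417730) and Me1 on chromosome 9 (86581371 to 86695953). Srebf1 shares 109 bases of its span from gene start to gene end with Rai1 on the other strand, which had 350 to 1510 counts per library. Whether strand was used in counting is not given in the sources used here, so reads from these bases cannot be assigned.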

How the data were processed

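RNA from snap-frozen eWAT and iWAT was made into strand-specific poly(A) libraries by the authors, trimmed with cutadapt and aligned with STAR to mm10. The program that counted reads, and whether it used strand, are not given in the sources used here. The authors deposited raw counts per gene, the cDNA length of each gene (in bases, not a measurement of expression), and FPKM per library, scaled to mapped or to counted reads. The deposited FPKM scaled to counted reads was used only to rank genes. Rows for uncounted reads (6.41% to 11.9% without a feature and 1.52% to 2.07% ambiguous) were left out of library sizes. Of 54752 gene IDs, 54723 had a symbol in GENCODE.

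Groups came from the sample labels. The 10 genes, the related lists and the marker lists were chosen with earlier results of these data known, and no list was tested as a set. Genes that averaged 1 CPM or more in a fit were tested in edgeR 4.0.16 (limma 3.58.1, R 4.3.3) with TMM and the quasi-likelihood test: 3 groups of 1 depot for diet and genotype, and all 25 libraries for depot comparisons and interactions. Genes were called at a Benjamini-Hochberg adjusted p under 0.1 over all genes of the fit, the level used in the study, and the fits were tested on simulated data. DESeq2 1.42.0, other filters, other size factors, a term for library number range and fits without single libraries were alternatives. Shares of all genes are those of the edgeR fits above, and none is given for the alternatives. Total counts of 31.41 to 52.34 M leave counting error small for these genes, and no replicate pair agreed within sampling noise (lowest chi-square 33.7 per degree of freedom over 42 pairs).

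Text names all 10 genes, Acod1, up to 3 called genes with the smallest adjusted p per related list and comparison (up to 2 by p where none was called), and the 5 nearest patterns. Levels per summed adipocyte marker and the fit without 3 eWAT libraries were added after values were seen. Marker lists were those of adipocytes, brown adipocytes, macrophages, fibroblasts and progenitors, endothelium, lymphocytes, mesothelium, epididymal epithelium, mammary and skin epithelium, skeletal muscle and red blood cells. Summaries and figures used Python 3.11.15, pandas 2.3.3 and matplotlib 3.10.9.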

Additional observations from a re-analysis of the deposited data

Results flagged for a closer look

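Single libraries stood apart from their groups, by the gap to the nearest library over the range of the group, in 8 of 40 groups of 4 or 5 libraries tested over the 10 genes. The 10 genes share the same libraries, so the 40 are not independent tests and no rate expected by chance is set beside the 8. In 4 of the 8 the library was eWAT Acod1-/- HFD replicate 2, above its group in Acly (515 CPM), Acaca (510 CPM), Fasn (4555 CPM) and Me1 (1561 CPM). That library also had the lowest depth of all, 31.41 M counts, 13.2% of its counts on mitochondrial genes against 5.09% to 7.69% in the rest of its group, and the lowest TMM factor of the eWAT fit, 0.84, and their part was not tested. eWAT WT HFD replicate 1 lay below its group in Acaca (90.4 CPM) and Srebf1 (73.8 CPM). In eWAT WT ND, replicate 4 lay above its group in Scd1 (40634 CPM) and replicate 1 below it in Mlxipl (54.5 CPM).

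The effect of diet differed between the depots in the interaction term of edgeR's quasi-likelihood test for Scd1 (0.90 on the log2 scale, adjusted p = 0.0782) and Elovl6 (-1.81, adjusted p = 0.0291), where 29.0% of all genes had a called interaction. Of the 25 fits that left out 1 library, the call was lost in 5 for Scd1 and in 1 for Elovl6.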

How the results depend on the processing

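Of 1116 values recomputed under alternatives, 1010 kept their direction and side of the threshold, 57 lost a call, 23 gained one and 26 changed sign, all of the last in genes not called in that comparison. For genotype in eWAT the 4 calls became 2 at an adjusted p under 0.05, 1 without the 3 eWAT libraries at the edge of their groups, and 2 to 5 when 1 library was left out. Those 3 libraries were chosen by the levels of the same genes, so the fall to 1 was partly built in. For Acod1-/- HFD against ND in eWAT the 2 calls became 1 at that threshold, with no filter on low counts and with only the 2 groups compared, 0 with the library number range as a term, and 0 to 4 without 1 library. For genotype in iWAT, 0 became 2 with DESeq2, 3 with the HFD libraries of range 1, and 0 to 2 without 1 library. The depot comparisons on HFD had 0 calls and 1 with DESeq2 in either genotype, and 0 to 1 without 1 library, while on ND the 1 call became 0 to 1. The diet by depot interaction had 2 calls and 1 at an adjusted p under 0.05, with no filter, with 1 CPM required in every library, and 1 to 2 without 1 library. Leaving out 1 library gave 5 to 7 calls for diet in eWAT, 7 for diet in iWAT, 5 to 7 for Acod1-/- HFD against ND in iWAT and 0 for genotype by depot. The 7 for diet in iWAT were not always the same genes. Without iWAT WT ND replicate 3, Fasn and Mlxipl lost the call, and Scd1 and Me1 gained it. The cause was not tested.

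Whether replicate numbers pair the samples was not settled. Same-numbered libraries were correlated in their deviations from the group mean. The correlation passed 0.1 in 9 of 13 pairs of eWAT groups, 4 of 9 of iWAT groups and 5 of 11 across depots. Across depots it ran from -0.093 to 0.489. No values for differently numbered libraries are given here, and the depot fits took all libraries as independent. A replicate block gave 1 call for Acod1-/- HFD against ND in eWAT, 1 for the depots on HFD in wild type mice and 1 for diet by depot, and moved no other count of calls by over 1.5 times. For diet in iWAT it ended the call of Mlxipl (-0.58, adjusted p = 0.108) and added Me1 (0.52, adjusted p = 0.0818).

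Signs changed without the 3 eWAT libraries for Me1 with diet (0.51, then called with an adjusted p of 0.0673 in edgeR) and for Fasn (-0.029), Scd2 (-0.20), Elovl6 (-0.30) and Me1 (-0.15) with genotype, for Elovl6 with genotype in range 1 (-0.071), and for Srebf1 with diet in iWAT under the range term (0.023). Without 1 library the log2 fold changes that crossed 0 ran, for diet, from -0.34 to 0.39 (Me1, eWAT) and -0.12 to 0.084 (Srebf1, iWAT). For genotype they ran from -0.028 to 0.33 (Scd2, eWAT), -0.17 to 0.27 (Elovl6, eWAT), -0.037 to 0.39 (Me1, eWAT), -0.39 to 0.23 (Acly, iWAT), -0.25 to 0.21 (Fasn, iWAT) and -0.018 to 0.34 (Srebf1, iWAT). All 60 group means lay within 1 SD under CPM on total counts. With 3 to 5 mice per group, small differences could not be told from the spread between mice.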
